A study of Mus musculus with 2 samples.

Results

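TIMPs and ADAMTS proteases are the inhibitors and proteases that set much of the turnover of the aortic matrix, and 10 of their genes were read in the mouse abdominal aorta by single-cell RNA sequencing. The genes were Timp1, Timp2, Timp3, Timp4, Adamts1, Adamts2, Adamts4, Adamts5, Adamts9 and Adamts15, matched by symbol, and each was 1 row among the 33696 genes measured. The Control library came from C57BL/6J males given normal saline. The AngII+HS library came from such males infused with angiotensin II at 1500 ng/kg/min by minipump and given 0.9% NaCl plus 0.2% KCl in the drinking water, an abdominal aortic aneurysm model, and both were taken at day 28 from mice 5 months old at the start. There was 1 library per condition, pooled from 5 mice by the series' design text but from 1 Control and 2 AngII+HS mice by its extraction protocol. Mice within a pool cannot be separated, so no test between conditions was possible, and every interval given here is a 95% interval for counting error only. Values are UMIs (counted molecules) per 1000000 UMIs of the same cells, called CPM below. Reads came from transcript 3′ ends, so CPM was not scaled by gene length. Comparisons between genes are of counted molecules, and whether all genes were captured alike was not tested.

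TIMPs are small secreted proteins that enter the active site of a metalloproteinase with their N-terminal cysteine and block it. They inhibit matrix metalloproteinases, and Timp3, which binds tightly to the matrix, is also the main known TIMP for ADAM and ADAMTS enzymes. ADAMTS enzymes are secreted zinc proteases with thrombospondin repeats. Adamts1, Adamts4, Adamts5, Adamts9 and Adamts15 belong to the group that cleaves hyaluronan-binding proteoglycans, above all versican and aggrecan, which swell and soften the arterial wall. Adamts2 instead removes the N-terminal propeptide of fibrillar procollagens.

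The coding bases of the sites that meet when a TIMP blocks an ADAMTS enzyme are shown because they are the structural basis on which the 10 members are grouped. They were read from GENCODE vM39 canonical transcripts on GRCm39, the only build used for positions here. For each TIMP the first 11 codons of the mature protein are printed, with the codon of the zinc-binding N-terminal cysteine in capitals. All 4 lie in a single exon, exon 2 of 6 for Timp1 and exon 1 of 5 for the other 3.
Timp1, chrX:20737350-20737382, plus strand: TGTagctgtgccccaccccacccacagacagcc
Timp2, chr11:118245806-118245838, minus strand: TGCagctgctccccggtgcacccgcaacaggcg
Timp3, chr10:86136787-86136819, plus strand: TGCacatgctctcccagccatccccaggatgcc
Timp4, chr6:115228620-115228652, minus strand: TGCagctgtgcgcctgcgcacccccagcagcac

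For each ADAMTS enzyme the zinc-binding site is printed, with the codons of the 3 histidines and of the catalytic glutamate in capitals. Each of these stretches joins 2 exons, so its coordinates span an intron.
Adamts1, chr16:85596079-85596433, minus strand: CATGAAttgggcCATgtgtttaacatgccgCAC
Adamts4, chr1:171080779-171081484, plus strand: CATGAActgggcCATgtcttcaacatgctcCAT
Adamts5, chr16:85674903-85684714, minus strand: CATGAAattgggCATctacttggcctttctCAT
Adamts9, chr6:92882266-92885474, minus strand: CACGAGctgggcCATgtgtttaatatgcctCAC
Adamts15, chr9:30822551-30822986, minus strand: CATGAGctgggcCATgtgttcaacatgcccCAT
Adamts2, chr11:50666230-50666961, plus strand: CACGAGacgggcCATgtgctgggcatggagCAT

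Adamts4 and Adamts15 were identical at 30 of these 33 bases, and Adamts1 matched both Adamts9 and Adamts15 at 28. Adamts5 matched the other 5 at only 18 to 20 bases. Adamts1 and Adamts5 lie on the same strand of chromosome 16 with 53051 bases between them. Timp1, Timp3 and Timp4 lie inside Syn1, Syn3 and Syn2 on the opposite strand, and Timp2 overlaps Cep295nl on the same strand, so Timp2 reads in the shared bases cannot be assigned with certainty.

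After quality filters and removal of likely doublets, 10269 Control and 19734 AngII+HS cells remained, with medians of 7265 and 3068.5 UMIs per cell. Clustering was run without the 10 members and gave 25 clusters, of which 3 stayed unnamed because their leading genes or markers did not support 1 cell type. Fibroblasts made up 25.4% of Control and 24.0% of AngII+HS cells. Vascular smooth muscle cells (VSMCs) were 32.1% of Control and 3.43% of AngII+HS cells, while neutrophils went from 0.964% to 23.6%, macrophages from 4.64% to 12.7%, and a monocyte-like cluster led by Arg1 from 0.399% to 10.5%. None of the leading genes of the Arg1-led cluster was a listed monocyte marker. In AngII+HS its monocyte markers summed to 1878 CPM and its macrophage markers to 1291 CPM, so its border to the macrophages is not firm. Of the unnamed clusters, 1 was led by Mylk4 and Itga8 (2089 Control and 212 AngII+HS cells) and 1 by Pln and Notch3 (176 and 227 cells), and both scored highest for the VSMC markers. Their values stand beside those of the VSMCs. The lists of cell barcodes recorded for the libraries have each other's lengths, 24804 for Control and 11448 for AngII+HS, the reverse of the matrices, and share 67 barcodes. The matrices were used as recorded, and whether the libraries were exchanged was not tested. Nearly all neutrophils and Arg1-led cells lay in the library labelled AngII+HS, and the 5 fibroblast markers summed to 17288 CPM in Control and 37288 CPM in AngII+HS fibroblasts.

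Stromal and vascular cells held most UMIs of each of the 10 genes. T and B cells were taken as the reference for free RNA, and expression of their own was not excluded. Their Timp1 level was 3.12 CPM (3 UMIs) in Control and 38.4 CPM (195 UMIs) in AngII+HS, and for the other 9 members it lay between 0.788 and 66.6 CPM in the 2 libraries. The 2 types were unlike for Adamts9 in Control, with 30.3 CPM (19 UMIs) in T cells and 2.99 CPM (1 UMI) in B cells. Of the named cell types, fibroblasts had the highest CPM of Timp1, Timp2 and Adamts2, lymphatic endothelial cells (LECs) that of Timp3 and Adamts1, and vascular endothelial cells (VECs) that of Timp4, in both libraries. The leading type of the other 4 differed between the libraries. For Adamts4 and Adamts9 it was LECs in Control and VECs in AngII+HS. For Adamts5 it was fibroblasts in Control and LECs in AngII+HS, and for Adamts15 VSMCs and then fibroblasts. The neighbours at the head of the order had separate intervals except VECs and VSMCs for Timp4 in AngII+HS (78.8 and 65.0 CPM) and fibroblasts and neural cells for Adamts5 in Control (335 and 276 CPM).

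**Figure D1:**
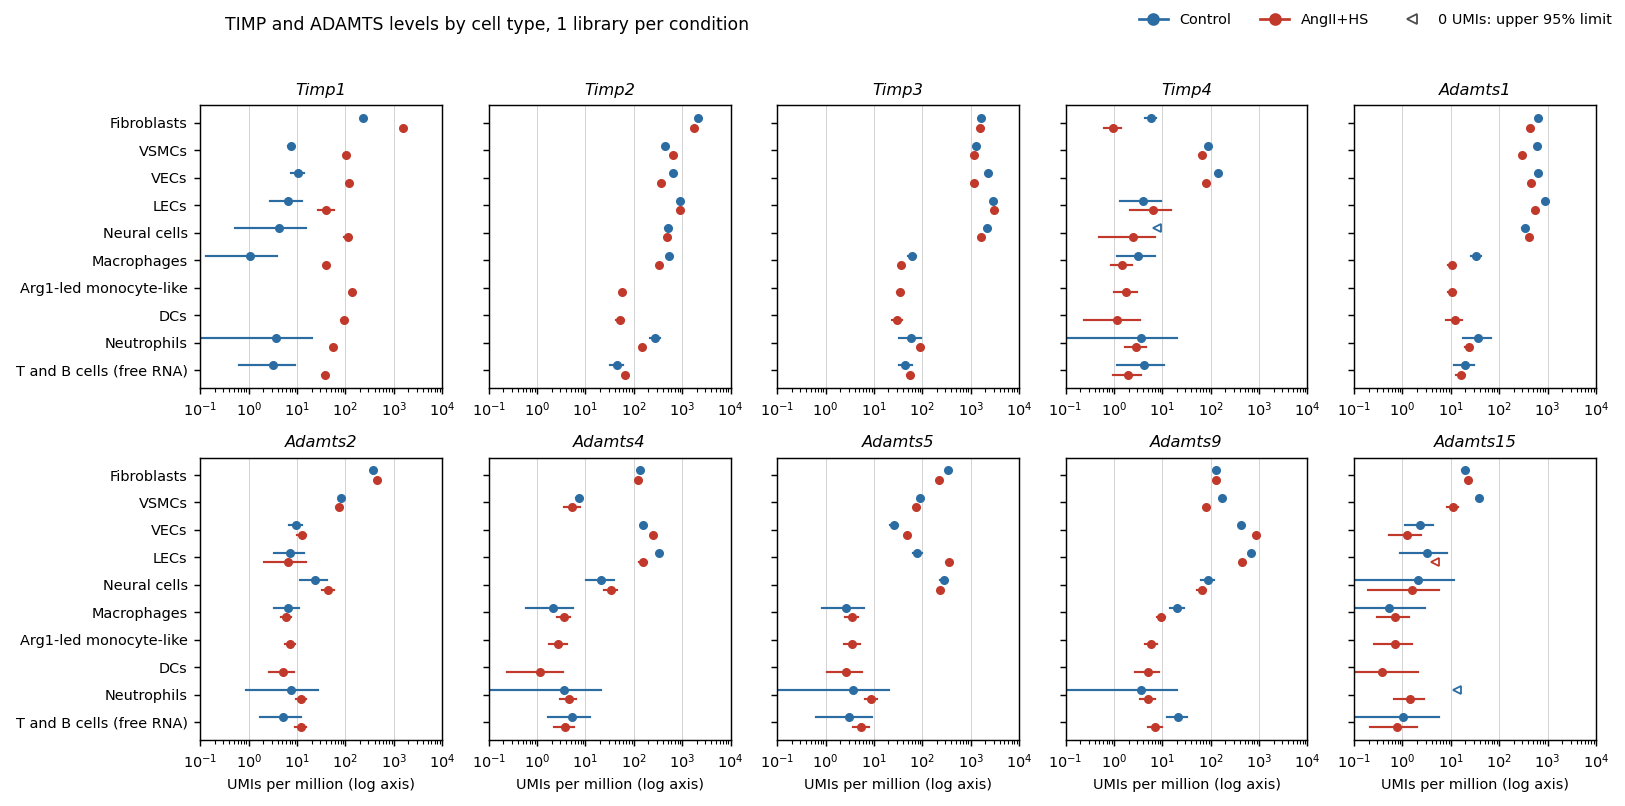
Level of each member in CPM (log axis) by cell type, blue for Control and red for AngII+HS, with 95% counting intervals; open triangles mark 0 UMIs. Timp1 is higher in AngII+HS in every row drawn for both libraries, including the T and B cells that serve as the free RNA level, and only in fibroblasts does it pass 1000 CPM.

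Because the 2 libraries differ in their cells, the share that each cell type contributed to a gene differed even where its level was close. Fibroblasts held 79.1% of the Timp1 UMIs of the Control library and 90.7% of those of AngII+HS. Adamts2 went from 43.6% to 91.5% fibroblast UMIs and Adamts15 from 8.42% to 82.4%. In Control, VSMCs and the Mylk4-led cluster together held more UMIs than fibroblasts of every member except Timp1 and Adamts4, and VSMCs alone held 38.8% of Timp3 and 50.7% of Adamts15. In AngII+HS the VSMC share was 8.90% for Timp3 and 7.35% for Adamts15. VECs held 12.3% of Adamts9 UMIs in Control and 47.2% in AngII+HS, and 11.3% and 46.7% of Timp4 UMIs. Macrophages held 1.91% of Timp2 UMIs in Control and 6.13% in AngII+HS. In AngII+HS these were 3917 UMIs, beside 3288 in VSMCs and 2332 in VECs.

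**Figure D2:**
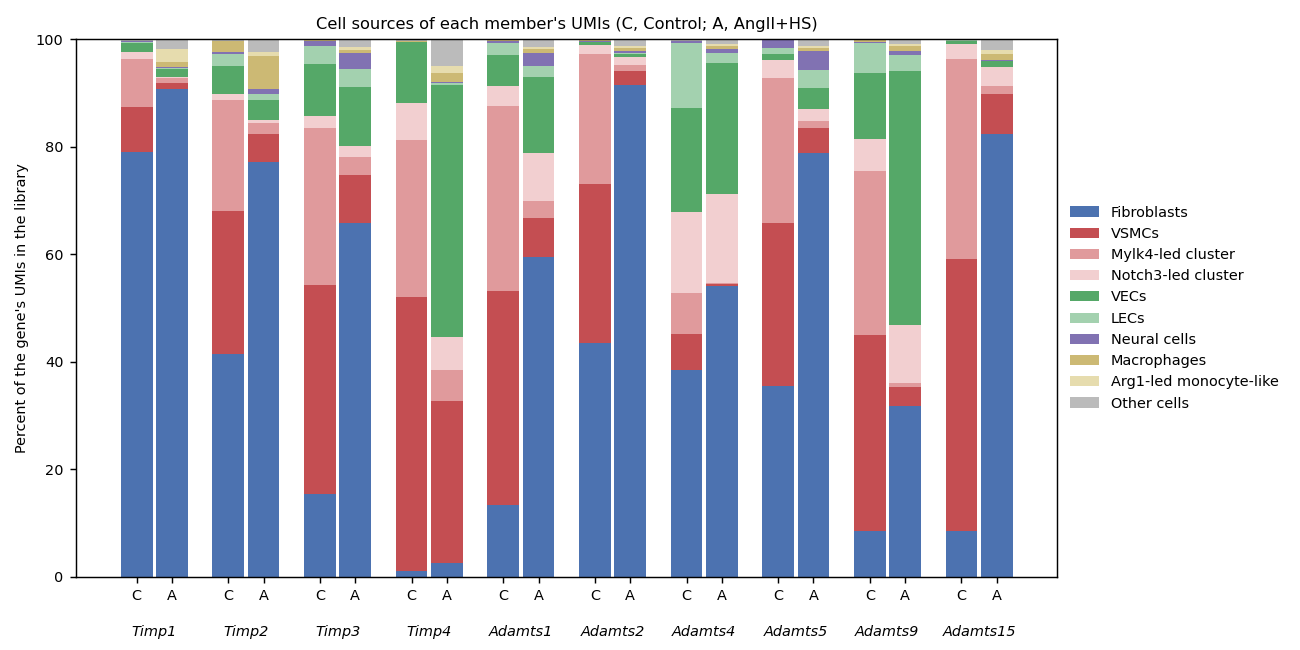
Percent of each member's UMIs by cell source in the Control (C) and AngII+HS (A) libraries. Fibroblasts (blue) make up 79.1% and 90.7% of Timp1, and the VSMC and Mylk4-led segments (reds) are shorter in the AngII+HS bar of every member.

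Timp1, an inhibitor of most matrix metalloproteinases, was higher in AngII+HS fibroblasts. It was at 231 CPM (2280 UMIs) in Control and 1568 CPM (44290 UMIs) in AngII+HS, 6.79-fold higher, a log2 ratio of 2.76 (2.70 to 2.83). The all-gene median log2 ratio in fibroblasts was -0.13, and relative to it Timp1 stood at 2.90. After thinning every cell to 1000 UMIs, 19.2% of Control and 38.3% of AngII+HS fibroblasts had a Timp1 UMI, and 1.86% and 9.59% had 3 or more. In T and B cells thinned alike the shares were 0.437% and 4.77%.

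The higher Timp1 level was seen in each fibroblast cluster that both libraries held, and to unequal degrees. The fibroblast class was made of different clusters in the 2 libraries: in Control mostly the clusters led by Dio2 and Gdf10 (57.1% of fibroblasts) and the Pi16-like cluster (28.3%), and in AngII+HS mostly a cluster led by Comp and Fmod (44.5%) and the Dio2-led one (34.2%). Pi16-like fibroblasts, the adventitial type, went from 176 to 1698 CPM of Timp1, a log2 ratio of 3.27 (3.15 to 3.39). The Comp-led cluster went from 224 to 973 CPM (2.12) and the Dio2-led cluster from 277 to 793 CPM (1.52). A small cluster of 166 cells led by Prg4, Mmp13 and Timp1 itself held no Control cell and stood at 7528 CPM. These cells were 3.50% of AngII+HS fibroblasts and held 39.3% of their Timp1 UMIs, and 35.7% of those in the whole library. They were also deep, with a median of 13838.5 UMIs against 5120 for all AngII+HS fibroblasts, and their VSMC, macrophage and VEC marker sums (623, 52.3 and 80.9 CPM) were below those of all AngII+HS fibroblasts (929, 64.4 and 188 CPM). Their monocyte, T cell and NK cell marker sums (428, 9.51 and 1.297 CPM) were above those of all AngII+HS fibroblasts (339, 7.40 and 0.814 CPM). Without them, fibroblast Timp1 in AngII+HS was 1036 CPM, a log2 ratio of 2.17. Their doublet scores were high too: removal of double the number of likely doublets, which took out 37.9% of AngII+HS but 2.18% of Control fibroblasts, left 6 of the 166 cells and, once reclustered, a fibroblast Timp1 log2 ratio of 1.40. With equal weight per cell the ratio was 1.69.

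Timp1 outside fibroblasts was far lower and has to be read against the free RNA. VSMCs went from 7.54 to 102 CPM (log2 3.76, 3.54 to 3.99), the Mylk4-led cluster from 11.5 to 315 CPM, the Notch3-led cluster from 27.9 to 106 CPM and VECs from 10.4 to 116 CPM (3.48, 3.04 to 3.94). In AngII+HS these levels were above the 38.4 CPM of T and B cells. Within VECs that held for the capillary-like cluster described below (10.1 to 159 CPM). The arterial-like VEC cluster (10.7 to 41.1 CPM) stood close to the T and B cells. So did the shallow VSMC cluster described below (7.68 to 41.1 CPM, 17 UMIs in AngII+HS) and LECs (6.48 to 40.2 CPM). Levels that close to the T and B cells are not shown to be above free RNA. The 5 fibroblast markers summed to 1578 CPM in Control VSMCs and 3560 CPM in AngII+HS VSMCs, and to 213 and 601 CPM in VECs, none of them at 0, and their part in the Timp1 difference was not tested. The thinned share of VSMCs with a Timp1 UMI was 6.69%, close to the 4.77% of T and B cells. Macrophages stood at 1.06 CPM (2 UMIs) and 40.2 CPM, close to the T and B cells, so their log2 ratio of 5.24 (3.38 to 8.29) is not shown to differ from free RNA. In AngII+HS, 2499 macrophages held 466 Timp1 UMIs and 2112 T and B cells held 195, with medians of 4018 and 2143 UMIs per cell. Per cell the macrophages thus held more. Among immune cells of AngII+HS, 3 types were above the T and B cells in CPM. They were the Arg1-led monocyte-like cluster (138 CPM, 1168 UMIs), dendritic cells (94.0 CPM) and neutrophils (56.5 CPM, 50.7 to 62.7). Neutrophils were shallower than T and B cells, with medians of 1268 and 2143 UMIs. They held 351 Timp1 UMIs in 4649 cells beside 195 in 2112 T and B cells, so per cell they were not above them.

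Timp2, Timp3 and Timp4 did not share the Timp1 difference in fibroblasts. Timp2, which also helps to activate pro-Mmp2 at the cell surface, was at 2166 CPM in Control fibroblasts and 1748 CPM in AngII+HS, a log2 ratio of -0.31 and of -0.18 relative to the all-gene median. Timp3 stood at 1622 and 1569 CPM, a log2 ratio of -0.05 that becomes 0.09 relative to that median. Timp4, the TIMP best known from heart and vessels, was scarce in fibroblasts, with 5.77 CPM (57 UMIs) in Control and 0.956 CPM (27 UMIs) in AngII+HS. Its T and B cell level was 4.16 CPM (4 UMIs, 1.13 to 10.6) in Control and 1.97 CPM in AngII+HS, so neither fibroblast value is shown to be above free RNA. All TIMP UMIs of fibroblasts together were 4025 CPM in Control and 4886 CPM in AngII+HS. Timp1 made up 5.73% of them in Control and 32.1% in AngII+HS, Timp2 53.8% and 35.8%, and Timp3 40.3% and 32.1%. In the Prg4-led cluster Timp1 was 60.3% of TIMP UMIs.

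Behind the close Timp3 levels of the fibroblast class lay ratios of opposite sign in its clusters. Timp3 was at 2557 CPM in Control and 3064 CPM in AngII+HS in the Dio2-led cluster, a log2 ratio of 0.26. It was 785 and 450 CPM in Pi16-like fibroblasts (-0.80) and 949 and 689 CPM in the Comp-led cluster (-0.46), and 3527 CPM in the Prg4-led cluster. Pi16-like fibroblasts also had less Timp2 in AngII+HS, 1706 against 2628 CPM (-0.62).

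**Figure D3:**
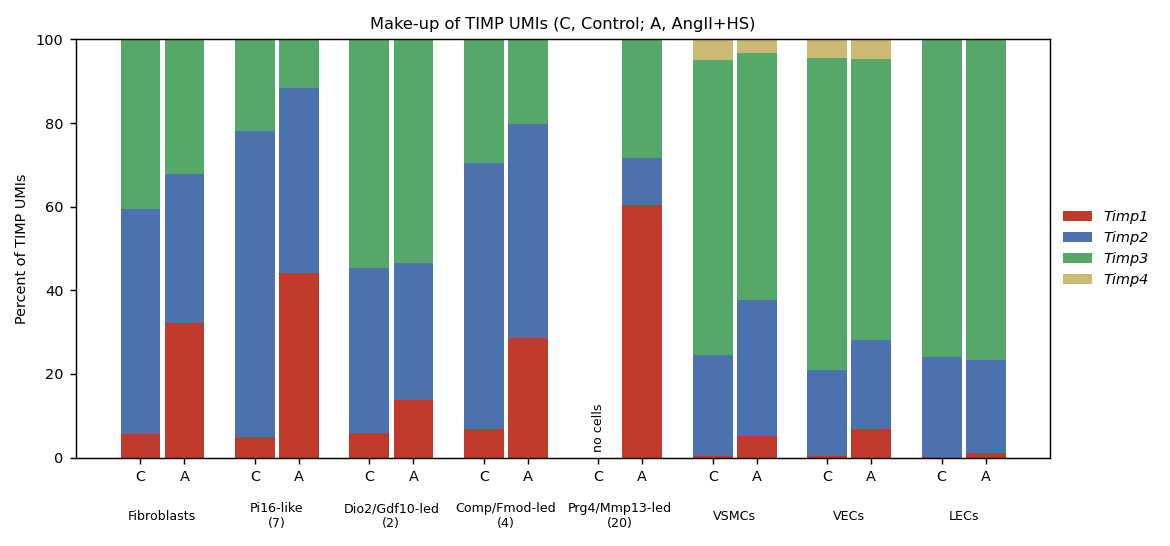
Percent of TIMP UMIs that belong to each TIMP in fibroblasts, their clusters, VSMCs, VECs and LECs, for Control (C) and AngII+HS (A). The Timp1 part (red) goes from 5.73% to 32.1% in fibroblasts and reaches 60.3% in the Prg4-led cluster, while Timp3 (green) keeps the largest part in VSMCs, VECs and LECs of both libraries.

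Fibroblast levels of the proteases differed by less than 2-fold. Adamts1, induced early by injury and cytokines in many cells, was at 647 CPM in Control and 439 CPM in AngII+HS, a log2 ratio of -0.56 (-0.42 relative to the all-gene median). Adamts5, a chief aggrecan-cleaving enzyme, was at 335 and 226 CPM, a log2 ratio of -0.57 (-0.43). Adamts2 was at 377 and 442 CPM, a log2 ratio of 0.23 (0.36). Adamts4 stood at 132 and 123 CPM, Adamts9 at 130 and 131 CPM and Adamts15 at 20.05 and 22.2 CPM, with log2 ratios between -0.10 and 0.15, all 3 above 0 relative to the all-gene median. Among the clusters, Adamts5 was highest in Pi16-like fibroblasts, with 569 CPM in Control and 433 CPM in AngII+HS, whereas the Dio2-led and Comp-led clusters lay between 136 and 246 CPM. In the Dio2-led cluster Adamts5 was at 203 and 246 CPM, a log2 ratio of 0.27 (0.16 to 0.39), and with the fibroblast clusters weighted as in Control the class ratio was -0.12. The Adamts1 class ratio was -0.29 under that weighting. By cluster the Adamts1 ratio was -0.20 (Dio2-led), -0.76 (Comp-led) and -0.34 (Pi16-like). Adamts2 was highest in the Comp-led cluster, with 558 and 511 CPM. Adamts15 went from 15.3 CPM (28 UMIs) to 27.2 CPM in the Comp-led cluster, a log2 ratio of 0.83 (0.28 to 1.44).

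In VSMCs all 6 proteases had log2 ratios below 0, and those of Adamts1, Adamts9 and Adamts15 lay furthest from it. Adamts1 was at 598 CPM (18950 UMIs) in Control and 303 CPM (1528 UMIs) in AngII+HS, a log2 ratio of -0.98 (-1.06 to -0.91), just short of 2-fold. The Adamts1 ratio passed 2-fold lower in 7 of 12 alternative analyses, the lowest at -1.05. Adamts9, an enzyme of versican turnover in development, was at 172 and 81.2 CPM, a log2 ratio of -1.08 (-1.23 to -0.94). Adamts15 was at 37.6 CPM (1192 UMIs) and 11.1 CPM (56 UMIs), a log2 ratio of -1.76 (-2.17 to -1.37). The Mylk4-led cluster gave log2 ratios of -0.77, -1.66 and -2.28 for the same 3 genes. Over all clusters that scored highest for the VSMC markers the Adamts1 ratio was -0.36. That sum includes the Notch3-led cluster, where the Adamts1 ratio was 0.42. Adamts5 had a VSMC log2 ratio of -0.29 (-0.45 to -0.13), and the counting intervals of Adamts4 (-0.43, -1.06 to 0.15) and Adamts2 (-0.13, -0.29 to 0.03) reached past 0. With equal weight per cell these last 2 ratios were 1.02 and 0.12.

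VSMCs consisted of a main cluster with 3006 Control and 469 AngII+HS cells and a shallow cluster led by Erbb4 and Myocd with 295 and 208 cells, at 0.448 of the median depth of its libraries. Adamts9 was at 164 and 44.2 CPM in the main cluster (log2 -1.89) but at 426 and 496 CPM in the shallow one (0.22, -0.02 to 0.46). The Adamts9 ratio of the VSMC class thus mixes 2 clusters with unlike levels, and the shallow cluster made up a larger share of VSMCs in AngII+HS. With equal weight per cell the class ratio turned to 0.10, and over all clusters that scored highest for the VSMC markers to 0.22. That sum adds the Mylk4-led cluster (-1.66) and the Notch3-led cluster (0.82). The Notch3-led cluster was 176 of 5566 such cells in Control and 227 of 1116 in AngII+HS, so the mix of clusters enters the 0.22 as well. The Adamts15 ratio was -0.47 when the libraries were merged without integration, which left 69 Control cells named VSMCs. Adamts1 was lower in both the main and the shallow VSMC cluster, with log2 ratios of -1.06 and -0.85. Timp2 was higher in the main VSMC cluster, 684 against 437 CPM (0.65), Timp3 stood at 1273 and 1250 CPM there, and Timp4 at 87.9 and 69.9 CPM (-0.33). In the shallow cluster Timp3 was at 1046 CPM in Control and 484 CPM in AngII+HS, a log2 ratio of -1.11 (-1.34 to -0.89). Timp2 was at 306 and 288 CPM there (-0.09, -0.41 to 0.22), and Timp4 had only 42 and 4 UMIs.

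Adamts1 is itself an immediate early gene in many cells. A list of immediate early and stress genes, which tissue digestion can induce, was lower in AngII+HS VSMCs as well. Of the 10 genes on that list, 6 were at least 2-fold lower in AngII+HS VSMCs, beside 7.08% of all genes, with a list median log2 ratio of -1.03 against -0.03 for all genes. Egr1 was at 4425 and 1519 CPM, Fosb at 2617 and 1175 CPM and Jun at 2265 and 1017 CPM. In macrophages 6 were lower (median -1.10, 12% of all genes lower) and in VECs 2 (median -0.42, 4.21% of all genes). In fibroblasts none was lower (median -0.09, beside -0.56 for Adamts1 or -0.29 with clusters weighted as in Control, 5.99% of all genes). There 1 was higher, Hspa1a at 700 against 265 CPM, beside 6.28% of all genes. In T and B cells the list median was -0.27 against 0.03 for all genes. Whether digestion induced these genes here, and their part in the Adamts1 difference, was not tested.

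The Notch3-led cluster stood apart from the VSMCs by its levels of Adamts1, Adamts4 and Adamts9. Of all clusters with at least 50 cells in both libraries it had the highest Adamts1 and Adamts4 levels in AngII+HS. Adamts4 was at 348 CPM (511 UMIs) in Control and 920 CPM (1067 UMIs) in AngII+HS, a log2 ratio of 1.40 (1.25 to 1.56), while VSMCs held only 7.19 and 5.35 CPM. Adamts9 was at 614 and 1085 CPM (0.82), Adamts1 at 1191 and 1595 CPM (0.42) and Adamts2 at 93.9 and 191 CPM (1.03). Adamts5 and Adamts15 went the other way. Adamts5 was at 210 and 157 CPM (-0.42, -0.69 to -0.15) and Adamts15 at 44.9 and 23.3 CPM (-0.95, -1.65 to -0.28). Over all genes of this cluster, 6.92% were at least 2-fold higher and 4.49% lower. Timp4 was lower, with 254 CPM in Control and 58.7 CPM in AngII+HS, a log2 ratio of -2.11 (-2.51 to -1.74). Other cell markers differed between its 2 libraries as well: the 6 VSMC markers summed to 29938 CPM in Control and 20102 CPM in AngII+HS, the 5 pericyte markers to 2408 and 5219 CPM, and the 5 VEC markers to 712 and 2921 CPM. The 5 fibroblast markers summed to 1080 and 2247 CPM and the 6 neutrophil markers to 12.9 and 447 CPM. Removal of double the number of likely doublets would take out 4.55% of its Control and 44.5% of its AngII+HS cells. The part of these differences was not tested. When all 4 clusters that scored highest for the VSMC markers were summed, Adamts4 was at 17.9 and 144 CPM, a log2 ratio of 3.0. The Notch3-led cluster was 176 of 5566 such cells in Control and 227 of 1116 in AngII+HS. Both the mix of clusters and the levels within them enter that ratio, and their parts were not tested.

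**Figure D4:**
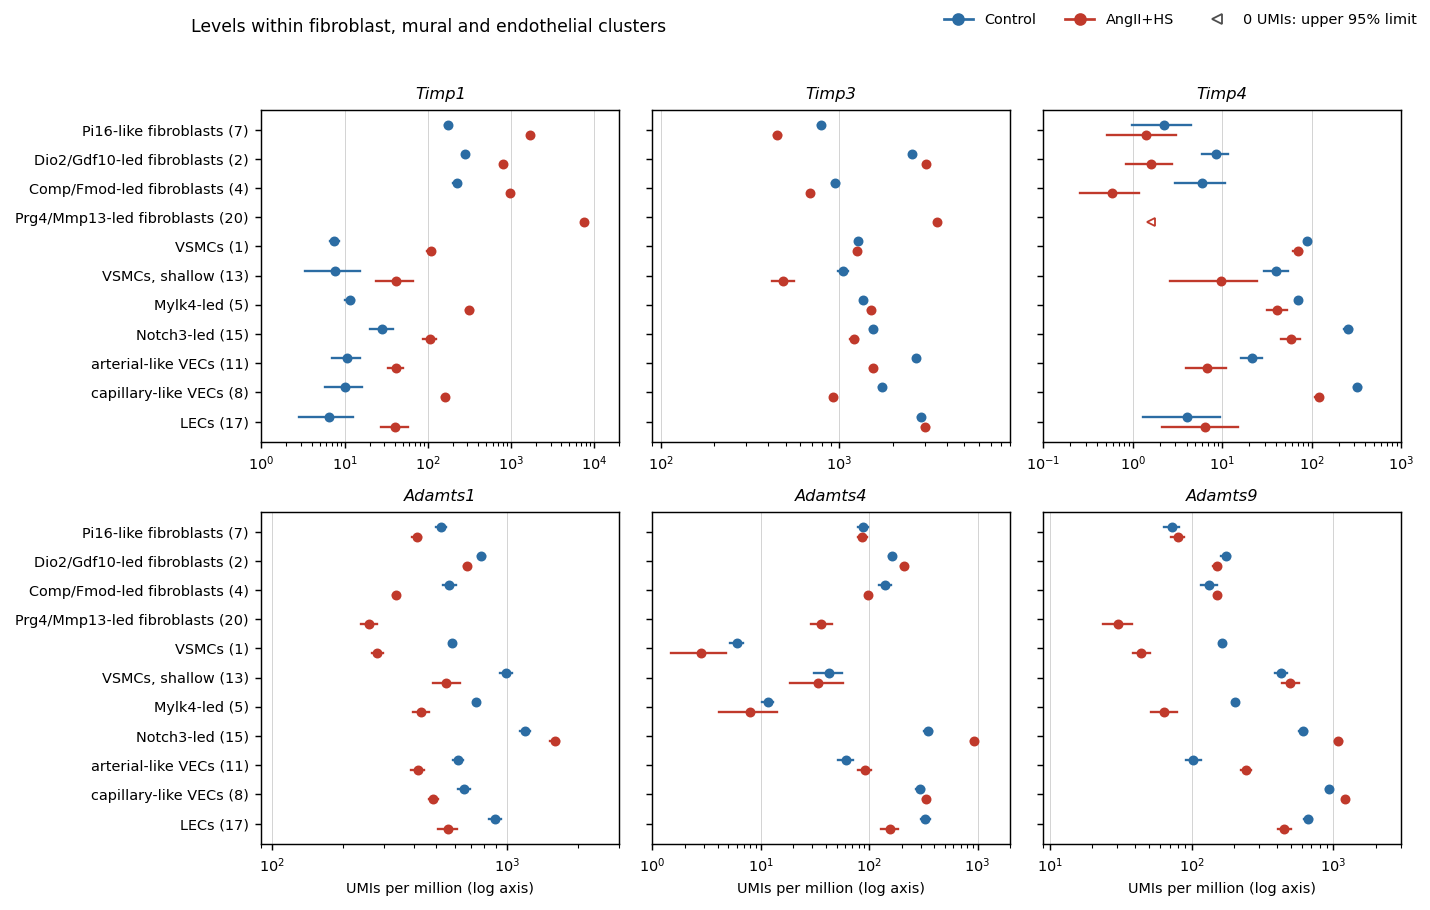
Level in CPM (log axis, a separate range for each gene) of 6 members in the fibroblast, mural and endothelial clusters, blue for Control and red for AngII+HS, with 95% counting intervals; clusters with under 50 cells in a library are left out. Adamts4 sits near 10 CPM or below in the main VSMC and Mylk4-led clusters and reaches 920 CPM in the Notch3-led cluster. Timp1 is higher in AngII+HS in every cluster drawn for both libraries. In arterial-like VECs, shallow VSMCs and LECs its AngII+HS level (41.1, 41.1 and 40.2 CPM) is close to the 38.4 CPM of T and B cells.

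VECs showed higher Adamts9 and lower Timp3 in AngII+HS. Adamts9 was at 427 CPM (1839 UMIs) in Control and 855 CPM (5498 UMIs) in AngII+HS, a log2 ratio of 1.003 (0.93 to 1.08). After thinning, 20.8% and 42.4% of VECs had an Adamts9 UMI. Timp3 was at 2303 and 1148 CPM, a log2 ratio of -1.004 (-1.05 to -0.96). Adamts4 was at 152 and 244 CPM (0.68) and Adamts5 at 26.4 and 48.7 CPM (0.88). Lower in AngII+HS were Adamts1 at 635 and 460 CPM (-0.46), Timp2 at 635 and 363 CPM (-0.81) and Timp4 at 140 and 78.8 CPM (-0.83).

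The 2 VEC clusters carried these genes at very different levels, and their balance differed, with 340 capillary-like and 497 arterial-like cells in Control against 819 and 412 in AngII+HS. Capillary-like VECs, marked by Cd36 and Gpihbp1, had 929 and 1205 CPM of Adamts9, a log2 ratio of 0.38 (0.29 to 0.46). Arterial-like VECs had 103 and 242 CPM, a ratio of 1.24 (1.02 to 1.45). Adamts9 was thus higher in both, and by less than 2-fold in the cells that held most of it. Timp3 was lower in both, with log2 ratios of -0.91 and -0.79. Both class ratios lay at the 2-fold limit, and the alternatives gave 0.87 to 1.17 for Adamts9 and -1.11 to -0.77 for Timp3. Within VECs, Timp4 lay mostly in the capillary-like cluster, at 324 and 120 CPM (-1.43), against 21.4 and 6.85 CPM in the arterial-like one. Timp2 ran the other way, with 846 and 778 CPM in arterial-like VECs and 308 and 126 CPM in capillary-like VECs (-1.29). Adamts4 had log2 ratios of 0.17 (0.02 to 0.32) in capillary-like and 0.59 (0.28 to 0.89) in arterial-like VECs, beside 0.68 in the class. Adamts5 had 0.26 (-0.08 to 0.60) in capillary-like VECs, beside 0.88 in the class, and only 14 and 24 UMIs in arterial-like VECs.

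In LECs, which line lymphatic vessels, 2 proteases passed 2-fold. Adamts5 was at 79.4 CPM (98 UMIs) in 137 Control LECs and 350 CPM (270 UMIs) in 150 AngII+HS LECs, a log2 ratio of 2.14 (1.80 to 2.49). Adamts4 went the other way, with 331 CPM (408 UMIs) and 154 CPM (119 UMIs), a log2 ratio of -1.10 (-1.40 to -0.80). Adamts9 was at 665 and 452 CPM, a log2 ratio of -0.56 (-0.74 to -0.37) beside 1.003 in VECs. Adamts1 was at 892 and 558 CPM and Timp3 at 2851 and 3022 CPM. Over all genes of LECs, 4.95% were at least 2-fold higher and 3.06% lower. Removal of double the number of likely doublets would take out 2.92% of Control and 38.7% of AngII+HS LECs, and no alternative was run for LECs. Whether the LEC and VEC ratios differ beyond the spread between animals was not tested.

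In the cells named macrophages most members were near the T and B cell level in CPM. Timp2 was the exception, with 523 CPM in Control and 338 CPM in AngII+HS against 44.7 and 66.6 CPM in T and B cells. Adamts1 was at 33.4 CPM (63 UMIs) and 10.4 CPM, and Adamts9 at 20.1 CPM (38 UMIs) and 9.57 CPM, beside 19.7 and 16.2 CPM and 20.8 and 7.10 CPM in T and B cells. For Adamts9 the T cells alone stood at 30.3 and 9.74 CPM and the B cells at 2.99 and 3.64 CPM, and the macrophage values lay between them. Subtraction of the free RNA level left Control macrophages under 3 UMIs of Timp1 and of Adamts9, and both were set to that floor of 3. The log2 ratios of 0.14 for Timp1 and 0.64 for Adamts9 that followed rest on the floor and show no direction. Adamts1 fell under the same floor in AngII+HS macrophages, so its subtracted log2 ratio of -5.72 rests on the floor too.

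Counted over members with at least 50 UMIs in both libraries together, and calling a gene at 2-fold, 1 of 10 was higher and 1 of 10 lower in fibroblasts (Timp1 and Timp4), against a background of 6.28% higher and 5.99% lower over all genes. In VSMCs 1 was higher (Timp1) and 2 lower (Adamts9 and Adamts15), against 3.46% and 7.08%. In VECs 2 of 9 were higher (Timp1 and Adamts9) and 1 lower (Timp3), against 6.28% and 4.21%. In macrophages 1 of 6 was higher (Timp1) and 2 lower (Adamts1 and Adamts9), against 14.1% and 12%, and none of these 3 stood above the T and B cells in AngII+HS by more than 3 CPM. With 10 members these counts are of single genes. The median log2 ratio of the members was -0.07 in fibroblasts and -0.35 in VSMCs, against all-gene medians of -0.13 and -0.03.

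**Figure D5:**
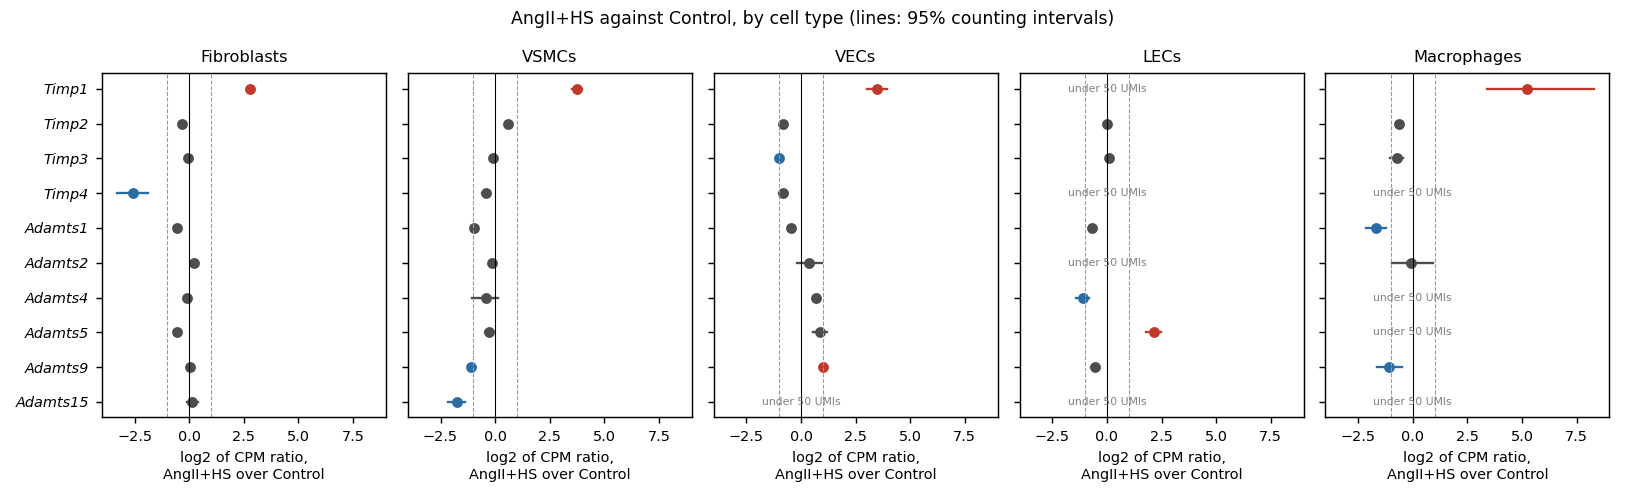
Log2 ratio of CPM, AngII+HS over Control, for each member in 5 cell types, with 95% counting intervals; red points are at least 2-fold higher, blue at least 2-fold lower, dashed lines mark 2-fold. Timp1 lies right of the 2-fold line in fibroblasts, VSMCs, VECs and macrophages, while the other members scatter on both sides of 0.

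Summed over all cells, the libraries gave another picture, because fewer cells of a type and a lower level per cell cannot be told apart in such sums. Timp1 was at 38.3 CPM in Control and 607 CPM in AngII+HS (log2 3.99), and 355 CPM (3.21) when the AngII+HS levels were weighted by the make-up of the Control library. Timp4 had a log2 ratio of -2.40 that was -0.64 at the Control make-up, Adamts1 -1.29 and -0.73, and Timp3 -0.72 and -0.08. For Adamts15 the values were -1.72 and -1.57. Over the whole libraries 1 member was at least 2-fold higher and 3 lower (Timp4, Adamts1 and Adamts15), against 19% and 11.2% of all genes.

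Among the other genes of the pathway, 5 of the 9 metalloproteinases that TIMPs bind were at least 2-fold higher in fibroblasts and none lower (list median 1.04 against -0.13, with 6.28% of all genes higher). Mmp3, a stromelysin, was at 1013 and 2455 CPM, and Mmp2, a gelatinase, at 292 and 684 CPM. Mmp13, a collagenase, was at 0.203 CPM (2 UMIs) and 98.2 CPM (2773 UMIs), a log2 ratio of 8.92 (7.07 to 11.97). It was a leading gene of the Prg4-led cluster of 166 AngII+HS cells, which held no Control cell. The Mmp13 class ratio therefore need not hold in the other fibroblast clusters. Without the Prg4-led cluster the list median in fibroblasts was 1.03 against -0.14 for all genes. Mmp9, a gelatinase of neutrophils, was at 0.304 and 10.3 CPM, next to 9.26 CPM in the T and B cells of AngII+HS, and is therefore not shown to be above free RNA. In VSMCs 2 of 6 were higher (3.46% of all genes), Mmp2 at 9.37 and 26.4 CPM and Mmp3 at 4.48 and 31.3 CPM, and the latter is below the 50.9 CPM of T and B cells. In VECs 4 of 7 were higher (list median 1.197, with 6.28% of all genes higher). In T and B cells, the reference for free RNA, the 4 list genes with at least 50 UMIs had a median of 1.09 against 0.03 for all genes.

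Of the 8 substrates and link proteins, 2 had at least 50 UMIs in fibroblasts, with 1 higher, beside 6.28% of all genes. In VSMCs 4 did, with 1 higher and 1 lower, beside 3.46% and 7.08%. Only Acan differed in both types. In T and B cells the whole list summed to 1.04 CPM in Control and 10.4 CPM in AngII+HS. Acan, the aggrecan core protein, was at 0.608 CPM (6 UMIs) and 14.4 CPM in fibroblasts, and at 7.57 and 39.0 CPM in VSMCs (log2 2.37, 2.09 to 2.64). Vcan, versican, stood at 243 and 219 CPM in fibroblasts and 169 and 181 CPM in VSMCs. Hapln3, a link protein, was at 6.50 and 2.97 CPM in VSMCs. Of the 13 other ADAMTS proteases, 8 had at least 50 UMIs in fibroblasts, with 2 higher and 1 lower, beside 6.28% and 5.99% of all genes. Adamts3, a second procollagen N-propeptidase, was at 22.2 and 52.1 CPM in fibroblasts but at 8.64 and 2.18 CPM in VSMCs, Adamts7 was at 2.73 and 6.44 CPM and Adamts8 at 11.8 and 3.36 CPM in fibroblasts. Of 6 ADAMTS-like glycoproteins with enough UMIs in fibroblasts, 1 was lower, Thsd4 at 35.3 and 8.43 CPM, a protein of fibrillin microfibrils, beside the same 5.99%. Of the 6 genes for activation, binding and uptake, 1 was lower, Pcsk6 at 123 and 29.5 CPM, a proprotein convertase, again beside 5.99%.

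Across 21 pairs of cell type and library, the members' profiles of log2(CPM + 5) were most like genes of the same cells, as a description over points that share libraries and depth. Timp1 was most like Mmp3 (r = 0.89), then Lum and Sfrp4. Timp3 was most like Rhoj (0.99) and Prkd1, and then Adamts1 (0.98), the 1 case in which the nearest genes included another member, in both directions. Adamts2 was nearest to Col6a2, Gas1 and Mmp23, Adamts15 to Or5m9, Adamtsl3 and Clip4, and Adamts9 to Tcf7l1, Armcx1 and Plxna2. Adamts4 was nearest to Zfp521, Adamts5 to Igsf3, Timp2 to Dcbld2, Timp4 to Pitpnm3 (0.97) and Adamts1 to Nfib.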

How the data were processed

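Aortas were digested with collagenase, hyaluronidase and DNase, and droplet libraries of the 3′ ends of transcripts were made, 1 for Control and 1 for AngII+HS. The authors aligned the reads and counted them with Cell Ranger, and the deposited values are raw UMI counts of 33696 genes per cell. The file headers name version 8.0.1. The genome build is given as mm10 in the submitters' processing notes and as GRCm39 in the study's methods, so positions were taken from GENCODE vM39 and not from the count tables. The authors also deposited no cell annotation among the files used here, so cell types were rebuilt. No column belonged to another series.

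A cell was kept if it had 500 UMIs or more, 200 genes or more, and a mitochondrial share below 20%. The highest Scrublet (scanpy 1.11.5) scores were removed at a rate of 0.8% per 1000 cells, which took out 9.03% of Control and 19.6% of AngII+HS cells. Kept cells held 75272868 UMIs in Control and 80415169 in AngII+HS. The libraries were integrated in Seurat 5.3.0 with 2000 variable genes, from which the members and all listed genes were left out, and clustered on 30 components at resolution 0.8. Clusters were named from fixed markers, and 3 that went against them stayed unnamed, which can shift shares relative to the study's own annotation.

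UMIs were summed by library and cell type and divided by their total (CPM). Ratios carry an exact conditional Poisson interval and shares a Clopper-Pearson interval, both at 95% and for counting error only. Medians over genes used 0.5 added UMIs. A gene was called at 2-fold with at least 50 UMIs over both libraries. With 1 library per condition there was no test, no SD and no p-value. On simulated counts for fibroblasts, 99.5% of 200 genes changed 2-fold, among 13614, had the right direction. This simulation covered counting error only and not the spread between animals. Shares of cells with a UMI were compared after thinning to 1000 UMIs per cell, leaving out shallower cells.

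The members and lists were chosen with earlier results of these data known. List genes were named if at least 2-fold different in fibroblasts or VSMCs with at least 200 UMIs, at most 4 per list, and Vcan and the immediate early genes were named outside that rule, after their values were seen. Cluster levels and markers beside a result were also chosen after seeing values. Genes most like a member were the 3 with the highest correlation. Alternatives covered doublets, cell filter, integration, resolution, variable genes, scaling (TMM from edgeR 4.0.16, or without mitochondrial genes), weight per cell, free RNA and the UMI minimum. A further 3, on which clusters make up VSMCs and fibroblasts, were added after seeing the data.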

Additional observations from a re-analysis of the deposited data

Results flagged for a closer look

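Adamts9 differed in direction between cell types under the same contrast. Its log2 ratio, AngII+HS over Control, was 1.003 in VECs, -1.07 in macrophages and -1.08 in VSMCs, with counting intervals on opposite sides of 0. The difference between cell types was not tested, since each condition had 1 library. By cluster the ratio was 0.38 in capillary-like and 1.24 in arterial-like VECs, and -1.89 in the main and 0.22 in the shallow VSMC cluster. In macrophages Adamts9 was at 20.1 and 9.57 CPM, next to 20.8 and 7.10 CPM in T and B cells. The T cells alone stood at 30.3 and 9.74 CPM and the B cells at 2.99 and 3.64 CPM.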

How the results depend on the processing

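No paired analysis was possible because each condition had 1 library, and for the same reason no replicate could be left out. Of 35 member ratios with at least 50 UMIs, 23 kept their sign in every alternative that gave a value, and of the 11 at 2-fold or more, 9 kept it and 4 stayed past 2-fold: Timp1 in fibroblasts (1.40 to 3.09), VSMCs (2.31 to 4.22) and VECs (2.99 to 3.93), and Timp4 in fibroblasts (-3.93 to -1.50). The Timp4 range says nothing of stability, since Timp4 was at 0.956 CPM in AngII+HS fibroblasts beside 1.97 CPM in T and B cells. Adamts9 turned to 0.10 in VSMCs with equal weight per cell, to 0.22 there over all clusters scoring highest for VSMC markers, and to 0.64 in macrophages with free RNA subtracted. Sums under 3 UMIs after that subtraction were set to 3, as for Timp1 and Adamts9 in Control macrophages and Adamts1 in AngII+HS macrophages. Their subtracted macrophage ratios (0.14, 0.64 and -5.72) rest on this floor. Timp1 and Adamts1 in macrophages are among the 9 that kept their sign, which says nothing of their stability under that subtraction. The number of members lower in fibroblasts (1) was 0 with at least 200 UMIs. The number higher in VSMCs (1) was 2 with equal weight per cell and 2 over all VSMC-scoring clusters. The number lower in VSMCs (2) was 4 with the stricter cell filter, 4 at resolution 0.4, and 1 with merged libraries, equal weight per cell or all VSMC-scoring clusters. The number higher in macrophages (1) was 4 with no doublets removed and 0 with free RNA subtracted, and the number lower (2) was 0 with no doublets removed, 1 with double the number removed, 1 with TMM scaling and 0 with at least 200 UMIs. The number higher in VECs (2) was 1 with the stricter filter, TMM scaling or mitochondrial genes left out, and the number lower (1) was 2 with no doublets removed, 0 with equal weight per cell and 2 with free RNA subtracted. Their causes were not tested. Counts over the whole libraries and the number of members with the same leading cell type stayed within 1.5 times. Merged libraries left 33 Control macrophages, under the minimum of 50, and gave no value there. Depth limits Timp4 in fibroblasts (57 and 27 UMIs) and most members in macrophages.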
